A study of Arabidopsis thaliana with 10 samples.

Results

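The probe sets described here stood higher on every array made after wild-type KLU was switched on than on any other array of the study. A probe set is the group of short probes that reads 1 transcript, or several alike, on an Affymetrix ATH1 array. A member had to have its lowest value on the 4 arrays of wild-type KLU at 90 and 240 min at least 0.5 log2 units above its highest value on the other 6 arrays. Of 22746 probe sets, 229 met this gap, or 1.01%. Of those 229, 11 were not followed because they belong to UGT71C3, AT1G01390, TUA1, AT3G62730, AT3G62780, AT1G80140 or the stretch from AT4G29580 to AT4G29640, which left 218 members. The members were therefore chosen by the values of all 10 arrays, and their difference between induced wild-type KLU and the other arrays is a description with no test. The opposite pattern, lower by the same gap, was met by 32 probe sets.

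Of the 218 members, 122 name 1 gene, 122 different genes in all, and 8 name several. The gene table used here does not list the other 88, so those are unnamed here. All values are log2 intensities, on which 1 unit is a doubling, and they compare arrays for a given probe set and not one gene with another.

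KLU (KLUH, CYP78A5) is a cytochrome P450 of Arabidopsis thaliana, a class of haem enzymes that oxidise small molecules. It is expressed at the edges of young organs, and its loss gives smaller leaves, sepals and petals because cell division there stops early. It acts beyond the cells that express it, and its product is not established.

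The plants all carried the klu-2 allele together with a 35S::AlcR-AlcA transgene. The 35S promoter drives the AlcR regulator through most of the plant, and AlcR turns on the AlcA promoter when ethanol vapour is given, so KLU was made outside its usual place. The transgene encoded wild-type KLU (lines 3-1 and 4-3) or a mutant KLU protein that the study used as its control (lines 1-5 and 3-2). Lines were independently transformed and served as the 2 biological replicates of each construct. The 5 groups of 2 arrays were wild-type KLU after 0, 90 and 240 min of vapour, and mutant KLU after 90 and 240 min. Plants were soil-grown, and each RNA came from pooled inflorescences that included young flower buds. No array of uninduced mutant KLU was part of the design, the vapour was given to every group except the one at 0 min, and plant age was not given. In what follows, paired values for wild-type KLU give line 3-1 and then line 4-3, and those for mutant KLU give line 1-5 and then line 3-2.

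Array medians over all probe sets lay between 5.93 and 6.05. The tapetum gene AT5G07230 read between 9.64 and 10.82 on all arrays. The other measured gene of the tapetum list, the regulator AMS, read between 4.11 and 4.95. Of the flower and meristem identity list, SPT, UFO and CLV3 were measured under their names. SPT read between 6.15 and 7.05 on all arrays, and UFO and CLV3 stayed below 4 on every array. KLU itself was not analysed here, since no probe set carries its name. In pooled tissue, fewer cells of a type and less RNA per cell cannot be told apart. Pollen transcripts differed between the lines. The mean of the 9 measured genes of a 28-gene pollen list was 4.91 and 4.39 without induction. After 90 and 240 min of wild-type KLU it was 5.78 and 4.76, then 5.21 and 4.78, and for the mutant protein 4.70 and 5.09, then 4.71 and 4.76. The part of pollen in the members' levels was not tested. Of that list, AGL30 is a member and TUA1 met the gap, so the mean includes values that the rule chose. TUA1 read 8.24 and 8.09 without induction and 10.49 and 10.42 after 90 min of wild-type KLU. Among the other measured genes of the list, only AGL94 (2.89 to 2.90) and ANX1 (3.32 to 3.47) were higher at 90 min than uninduced in line 4-3. In line 3-1 all of them but AGL94 were higher.

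The median member stood at 5.67 and 5.63 without induction. After 90 min of wild-type KLU it was 7.83 and 7.84, and after 240 min 7.83 and 7.88. For the mutant protein the same times gave 5.55 and 6.39, then 5.60 and 6.14. The plot of levels by array shows that the 4 induced wild-type arrays were alike, and that mutant line 3-2 lay between them and the rest.

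**Figure D1:**
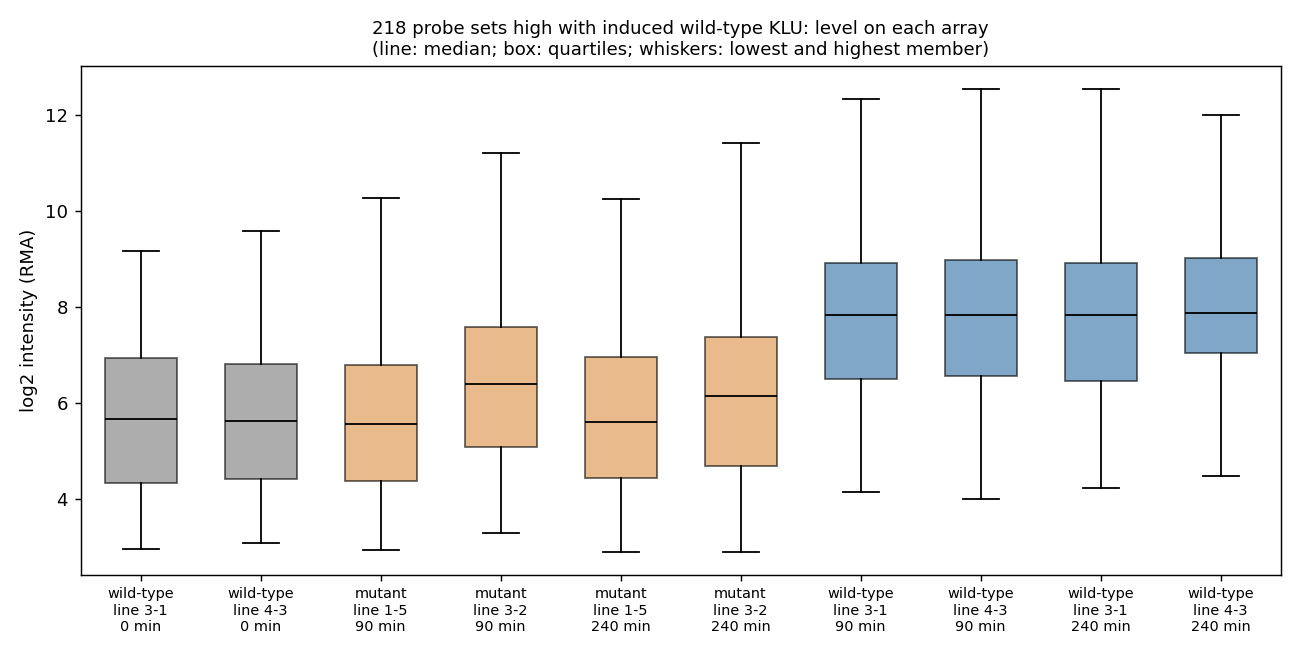
Log2 intensity of the 218 members (vertical axis) on each of the 10 arrays (horizontal axis), with the median as a line, the quartiles as a box and the lowest and highest member as whiskers. Grey is uninduced, orange is mutant KLU and blue is induced wild-type KLU. The blue medians lie between 7.83 and 7.88 and the others between 5.55 and 6.39.

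The mean of the 4 induced wild-type arrays exceeded that of the other 6 by a median of 1.80 log2 units, a fold of 3.48. Members spanned folds from 1.75 to 41.0, with 208 of 218 at 2-fold or more and 93 at 4-fold or more. The gap itself had a median of 0.835 and reached 2.5. It was at least 1 in 85 members and at least 2 in 9, and it was under 0.75 in 91. Many members were near the low end of the scale when not induced: the mean of the other 6 arrays was under 6 in 117.

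The widest gap among all members belonged to AT1G29180, a cysteine- and histidine-rich C1-domain protein. It read 4.00 and 4.11 without induction, and under the mutant protein 4.24 and 6.09 after 90 min, then 4.02 and 5.13 after 240 min. Under wild-type KLU the readings were 8.75 and 8.68, then 8.59 and 9.18, 18.4-fold above the mean of the other 6. All 4 induced wild-type arrays were within 0.6 units of each other, and mutant line 3-2 was the highest of the rest at both times. Another C1-domain gene among the members that name 1 gene, AT1G44030, went from 4.03 and 3.93 without induction to 5.49 and 5.10 at 90 min and 5.26 and 5.32 at 240 min.

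The largest fold, 41.0, was that of AT3G63360, which encodes a defensin-related protein, one of the small cysteine-rich proteins that plants secrete against microbes. It was near the bottom of the scale without induction, at 3.32 and 3.48, and reached 9.90 and 8.92 at 90 min and 9.97 and 10.37 at 240 min. In mutant line 1-5 it read 3.33 and 3.86 at 90 and 240 min, and in mutant line 3-2 it read 6.63 and 5.98. So 1 mutant line resembled the uninduced plants and the other lay between.

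Thaumatin-like proteins, the class of the pathogenesis-related PR-5 protein, gave 4 members. AT1G19320 stood at 4.54 and 4.47 without induction, 7.17 and 7.95 at 90 min and 7.04 and 7.37 at 240 min, and its highest mutant array was 5.64. AT4G38670 read 5.37 and 5.62, then 8.40 and 8.19, then 8.72 and 8.29 at the same times, with 6.97 and 6.87 in mutant line 3-2. For AT1G75050 the values were 7.46 and 6.66, then 9.20 and 10.27, then 8.76 and 9.01. AT1G20030 had the smallest difference of these 4, 1.55 log2 units, and AT1G19320 the largest, 2.80. Other members of defence families were AT3G55840, a homologue of the nematode-resistance protein Hs1pro-1, AT4G25780, of the CAP family that holds PR-1, and AT3G48080, a homologue of the immune regulator EDS1. AT3G55840 was higher at 90 min (5.98 and 5.90) than at 240 min (5.16 and 5.23), and AT3G48080 was higher at 240 min (4.96 and 4.61) than at 90 min (4.29 and 4.00). Of the defence list, PDF1.2 was the only gene measured under its name, and it read between 4.10 and 4.74 on all arrays.

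A cluster of genes for ribonuclease H-like exonucleases lies on chromosome 3. AT3G12440 had the second widest gap of the named genes, 2.3. Its 6 low arrays lay between 3.18 and 3.85, and its induced wild-type arrays read 6.15 and 7.10 at 90 min and 7.15 and 7.41 at 240 min. AT3G12460 and AT3G12470 stood 2.07 and 1.73 log2 units above the other arrays. These copies resemble each other, and whether they share probe signal was not tested.

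Among 6 protein kinases, AT4G25390 read 5.49 and 5.15 without induction, 9.05 and 9.07 at 90 min and 8.79 and 8.62 at 240 min. The neighbouring genes AT5G61550 and AT5G61560 encode kinases with a U-box, a domain of ubiquitin ligases. AT5G61550 went from 3.66 and 3.70 to 5.85 and 5.92 at 90 min and 6.96 and 7.55 at 240 min, whereas AT5G61560 read 7.06 and 7.43 at 90 min and 7.09 and 7.34 at 240 min. The first of the pair was thus still higher at the later time in both lines and the other was not. AT1G22870, a kinase-like protein of the SCY1 family, read 7.84, 7.73, 7.61 and 7.75 on the 4 induced wild-type arrays and at most 6.30 elsewhere. ATMRK1, a kinase related to the Raf type, had a smaller difference of 1.14 log2 units.

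Of the members that name 1 gene, 3 were grouped here as enzymes that carry a flavin. AT1G12130, a flavin-containing monooxygenase of the kind that oxidises glucosinolates, stood at 3.12 and 3.24 without induction. It read 6.18 and 5.81 at 90 min and 6.36 and 7.12 at 240 min, 7.90-fold above the mean of the other arrays, none of which passed 3.85. AT1G30740, of the berberine bridge enzyme family, and AT3G56060, a glucose-methanol-choline oxidoreductase, differed by 1.85 and 1.04 log2 units. The TolB-like proteins AT4G01870, AT1G21670 and AT1G21680 gave another group of 3. AT4G01870 read 5.66 and 6.17, then 9.72 and 10.11, then 9.46 and 9.78 over the 3 times, 8.80-fold above the other arrays.

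SBTI1.1 encodes a subtilase, a secreted serine protease. It stood at 7.39 and 7.31 without induction, 12.06 and 11.83 at 90 min and 11.94 and 12.01 at 240 min, a fold of 13.8. Its mutant values were 7.15 and 10.33 at 90 min and 7.38 and 9.47 at 240 min, so the lines of the mutant differed by more than 2 units at each time. The pepsin-like aspartyl proteases AT5G19100, AT5G19110 and AT4G30030 differed by 1.60, 1.54 and 1.15 log2 units, and AT1G17860, a Kunitz-type protease inhibitor, by 2.02.

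Of the members that name 1 gene, 6 were grouped as cell wall proteins. EXPA20, an expansin, a protein that loosens walls in growing cells, read 5.72 and 6.01 without induction, 8.77 and 9.04 at 90 min and 9.43 and 9.58 at 240 min, a fold of 6.89. Its arrays of mutant line 3-2, at 7.45 and 7.54, were the highest of the others. GH9B17, an endoglucanase-family glycosyl hydrolase, and the pectin methylesterases PME61 and AT4G15980 differed by 1.65, 1.34 and 1.34 log2 units. AT5G62340, of the family of invertase and pectin methylesterase inhibitors, read 6.48 and 6.11 at 90 min and 6.32 and 8.52 at 240 min, so its later mean rests on line 4-3.

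Of the members that name 1 gene, 5 were grouped as transcription factors. AGL86, a MADS-box protein, had a fold of 18.2, with 3.18 and 3.33 without induction, 8.95 and 8.27 at 90 min and 9.56 and 9.14 at 240 min. In mutant line 1-5 it read 2.95 and 4.33 at 90 and 240 min and in mutant line 3-2 it read 7.40 and 7.57, which is why its gap was only 0.70. AGL30, a MADS-box protein of pollen, and AT3G12510, another MADS-box protein, read within 0.3 units on all 4 induced arrays, at 6.84 to 7.09 and 7.78 to 7.91. AT2G40200, a basic helix-loop-helix protein, and AT5G67010, of the AP2/ERF class, completed the group. For general steps of RNA synthesis and processing, IYO (MINIYO, an RNA polymerase II-associated protein that starts cell differentiation) read 5.67 and 5.76 without induction, 7.59 and 8.06 at 90 min and 7.48 and 8.37 at 240 min. AT3G20650 (mRNA capping), THO1 (mRNA export) and AT4G38780 (a PRP8-like splicing protein) had differences of 0.97, 0.81 and 1.21 log2 units.

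Of 5 genes of primary metabolism, APS4, an ATP sulfurylase of sulfate assimilation, had the largest fold, 14.0. It read 7.44 and 5.63 without induction, so the wild-type lines differed at the start, and 11.03 and 10.11 at 90 min and 11.23 and 11.45 at 240 min. GPDHp, a glycerol-3-phosphate dehydrogenase, stood at 7.88 and 7.91 without induction and between 10.23 and 10.71 on the induced arrays. CCMH, for cytochrome c maturation in mitochondria, FAAH, a fatty acid amide hydrolase, and AT1G15710, an arogenate dehydrogenase of tyrosine synthesis, differed by 1.59, 1.03 and 1.02 log2 units. The transporters TAAC, which exchanges ATP and ADP at the thylakoid, and AT1G11670, of the MATE efflux family, differed by 1.81 and 2.26. UGT71C5, which glucosylates abscisic acid, and AT1G51210 are glycosyltransferases, and differed by 1.79 and 2.12. The C2-domain membrane proteins AT3G03680 and QKY (QUIRKY, known for organ shape and cell-to-cell signalling) differed by 2.70 and 1.28.

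**Figure D2:**
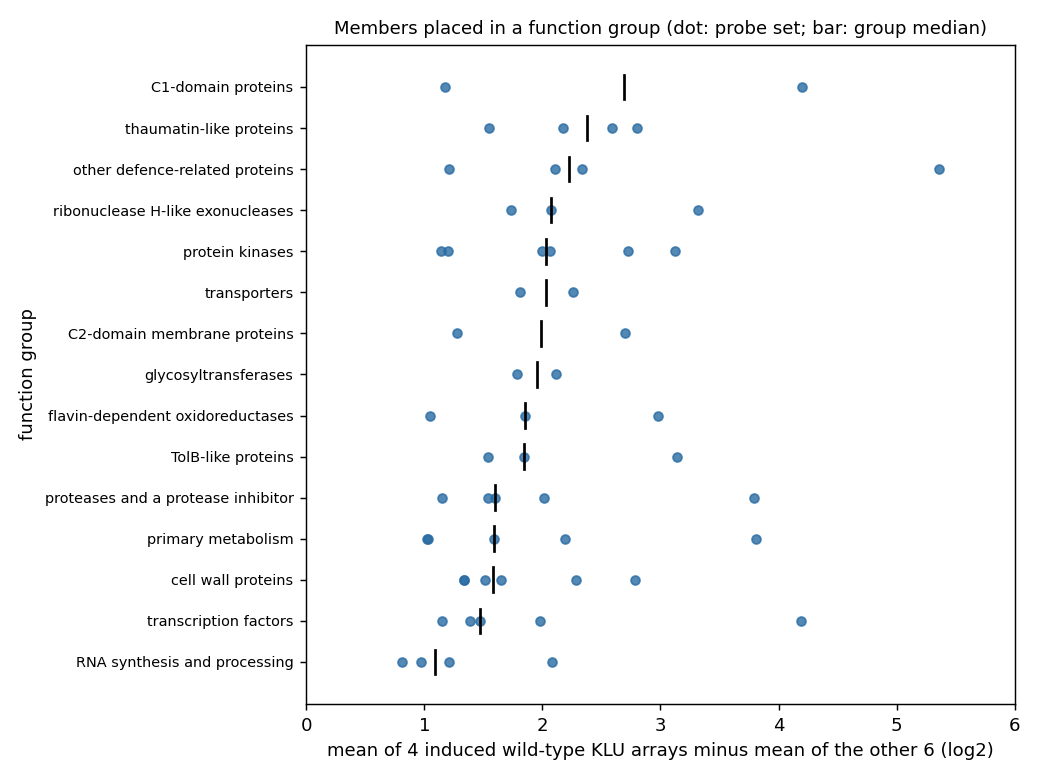
Each dot is 1 of the 56 members placed in 1 of 15 function groups (vertical axis), at the mean of the 4 induced wild-type KLU arrays minus the mean of the other 6 in log2 units (horizontal axis), and the bar is the group's median. Group medians run from 1.09 for RNA synthesis and processing to 2.69 for C1-domain proteins, and AT3G63360 lies farthest right at 5.36. Groups were made by hand once the members were known, and no test was made on them. Only members that name 1 gene were placed, and a group need not hold every member of its family.

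Several genes with wide gaps fall in no group above. AT1G80130, of the tetratricopeptide repeat type, read 7.57 and 5.38 without induction, 10.45 and 9.84 at 90 min and 10.13 and 10.20 at 240 min, and its wild-type lines differed by 2.19 units before induction. AT2G32190, a small cysteine-rich transmembrane protein, read 4.10 and 3.64, then 8.20 and 7.98, then 7.82 and 8.07, and a probe set that also reads this gene is another member. AT5G24390, a Rab GTPase-activating protein, AT3G02400, a forkhead-associated domain protein, AT5G09430, a hydrolase, and AT3G54200, of the LEA hydroxyproline-rich family, had gaps of 1.64, 1.57, 1.36 and 1.34. AT1G31335 and AT3G42860, a zinc knuckle protein, had gaps of 1.44 and 1.26.

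**Figure D3:**
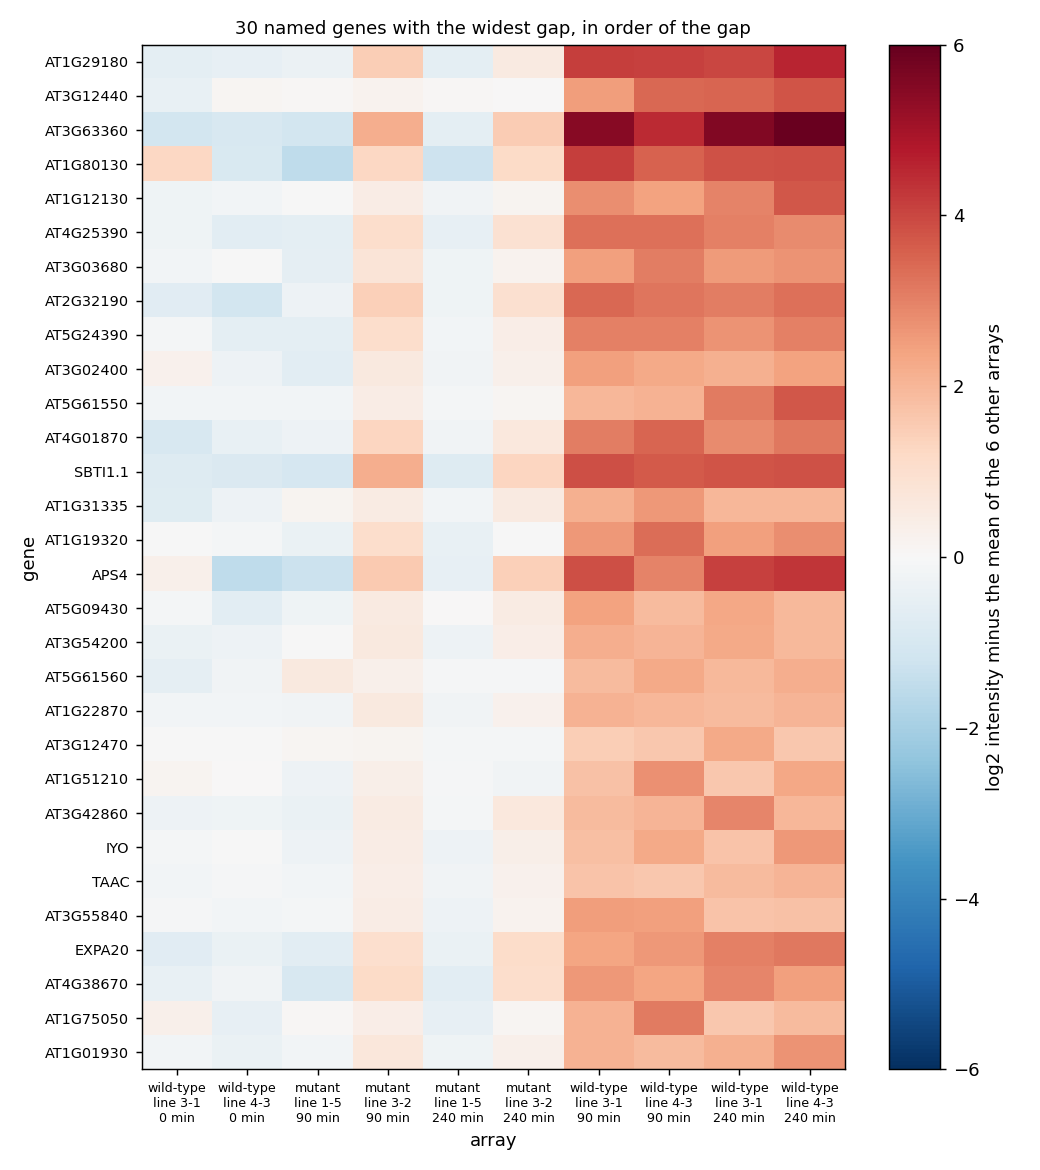
The 30 members that name 1 gene and have the widest gaps (rows, in order of the gap) on the 10 arrays (columns), coloured by log2 intensity minus the mean of the 6 other arrays. The 4 columns on the right, induced wild-type KLU, are red in all rows, and mutant line 3-2 is paler red in most, as in AT3G63360 and SBTI1.1.

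At the edge of the rule, the named members with the smallest gaps were AT1G15710, AT1G54380, AT2G28600 and AT2G38450, each at 0.50, and 1 unnamed member had the same gap. For AT1G15710 the lowest induced array was 8.23 and the highest other array 7.73. Just outside were UGT71C4 at 0.49, AT1G03180 at 0.47 and AT1G78060 at 0.46, with 8.67 against 8.18 for UGT71C4. UGT71C4 belongs to the same family as UGT71C5 and UGT71C3.

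The next comparison asked whether the members' levels moved between 90 and 240 min of induction. Most of the difference from uninduced plants was already there at 90 min. The median member stood 1.86 log2 units above the uninduced level at 90 min and 1.95 at 240 min, and the share of the later difference present at 90 min had a median of 98.1%. It was at least 75% in 183 members, at least 100% in 99 and under 50% in 2. AT5G62330 had the lowest share, 37.8%, with 4.23 and 4.59 without induction, 5.48 and 5.25 at 90 min and 6.56 and 7.31 at 240 min. The rule constrained both times from below, so that only members already high at 90 min could enter.

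For 240 against 90 min with wild-type KLU, limma's moderated test with Benjamini-Hochberg adjustment over all probe sets called 0 members, and 0.0% of all probe sets. At an unadjusted p under 0.05 it gave 31 members, 14.2%, against 10.2% of all. The median difference was 0.045 log2 units for members and -0.01 for all probe sets, and it ranged from -1.25 to 2.11 among members. The members' median was -0.012 without line 4-3 at 240 min and 0.108 without line 3-1 at 240 min. Both lines were higher at 240 min in 73 members (33.5%, against 30.1% of all probe sets), both lower in 58 (26.6%, against 30.1%), and 87 were mixed or tied. The values of the 2 arrays at 240 min lay wholly above those at 90 min in 62 members (28.4%, background 19.2%) and wholly below in 36 (16.5%, background 16.0%).

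Among the named members, the lowest p-values belonged to 4 genes that were higher at the later time. AT3G01570, an oleosin, which coats oil bodies, read 5.22 and 5.32 at 90 min and 6.15 and 6.41 at 240 min, a difference of 1.01 (SE 0.139) with a limma adjusted p of 0.195. AT5G62330 differed by 1.57 (SE 0.253) and AT5G61550 by 1.37 (SE 0.251), and the limma adjusted p was 0.253 for each. AT5G43770, the neighbour of APS4, read 5.42 and 5.20 at 90 min and 6.18 and 6.16 at 240 min. The arrays of the 2 times did not overlap in these 4 genes, and no adjusted p passed 0.05. At the other end, AT5G67020 read 7.69 and 9.03 at 90 min and 6.59 and 7.63 at 240 min, a difference of -1.25, with the lines further apart than the nearest arrays of the 2 times. AT1G75050 and AT3G55840 were lower at 240 min by 0.85 and 0.74 log2 units on average, with limma adjusted p of 0.535 and 0.374. Unnamed members with p-values as low as those of the 4 genes moved in both directions. Their differences were 2.105, 0.975 and -1.15 log2 units, each with a limma adjusted p of 0.253.

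**Figure D4:**
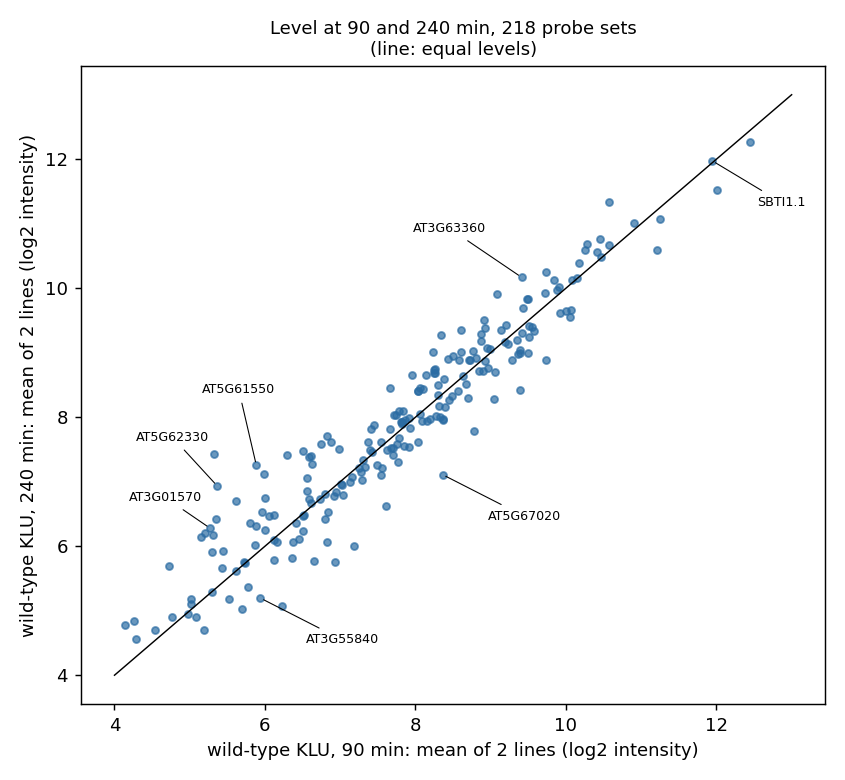
Mean log2 intensity of the 2 wild-type KLU lines at 90 min (horizontal axis) and at 240 min (vertical axis) for the 218 members, with a line of equal levels. Points lie along the line, with AT5G62330 and AT5G61550 above it and AT5G67020 and AT3G55840 below it.

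The same interval in mutant KLU gave 0 members and 0.0% of all probe sets in limma. At an unadjusted p under 0.05 it gave 3 members, 1.38%, against 2.15% of all. The members' median difference was -0.088, and its sign turned without a single array: it was 0.172 without line 3-2 at 90 min and 0.1 without line 1-5 at 240 min. Without line 1-5 at 90 min it was -0.382, and without line 3-2 at 240 min -0.272. Members were wholly higher at 240 min in 6 (2.75%, background 13.4%) and wholly lower in 27 (12.4%, background 13.8%). The test of whether the time difference itself differed between the constructs gave 0 members and 0.0% of all probe sets. At an unadjusted p under 0.05 it gave 17 members, 7.8%, against 2.65% of all. The members' median in it was 0.145, and -0.168 without mutant line 3-2 at 90 min. The smallest limma adjusted p of that test among members was 0.9998.

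Levels with mutant KLU were then set against uninduced plants. The uninduced arrays come from the wild-type KLU lines, so line and construct differ here as well as vapour and time. The rule bounds these 6 arrays from above but does not set their order. At 90 min limma called 0 members and 9 of all probe sets, 0.0396%. An unadjusted p under 0.05 was reached by 16 members, 7.34%, against 6.6% of all. At 240 min limma called 1 member and 35 of all, 0.154%. An unadjusted p under 0.05 was reached by 14 members, 6.42%, against 7.76% of all. Both comparisons use the same 2 uninduced arrays. The member is 1 of the 8 probe sets that read several genes, and is not named for that reason. It read 7.81 and 7.99 without induction. Its mutant arrays stood at 9.88 and 9.99, then 10 and 9.84, and its induced wild-type arrays between 10.63 and 11.38. With mutant KLU at 240 min it was higher than uninduced by 2.02 (SE 0.231, limma adjusted p 0.0316). At 90 min the difference was 2.04 with a limma adjusted p of 0.0584. The call at 240 min was lost when either array of the uninduced group, of either mutant group or of wild-type KLU after 90 min was left out.

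Short of that threshold, the members' median difference between mutant KLU and uninduced plants was 0.285 log2 units at 90 min, against -0.015 for all probe sets, and 0.175 at 240 min, against -0.02. Both values rest on line 3-2: without its array the median was -0.015 at 90 min and 0.005 at 240 min. At 90 min 59 members were wholly higher (27.1%, background 14.9%) and 7 wholly lower (3.21%, background 18.5%). At 240 min 63 were wholly higher (28.9%, background 16.5%) and 19 wholly lower (8.72%, background 20.9%).

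The 2 mutant lines were not alike in this. At 90 min line 3-2 lay above the uninduced mean in 202 members, 92.7%, compared with 47.0% of all probe sets, and by a median of 0.545. Line 1-5 lay above it in 104 members, 47.7%, compared with 47.3% of all, with a median of -0.015. At 240 min the counts were 173 (79.4%, against 43.4% of all) in line 3-2 and 110 (50.5%, against 48.7% of all) in line 1-5. Members in line 3-2 at 90 min had a median of 30.4% of the difference that wild-type KLU showed at that time, with quartiles of 18.7% and 41.5%, and 34 had over 50%. At 240 min the median was 17.4%. With 1 line of each kind, the difference between the mutant lines has no test.

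Line 3-2 exceeded line 1-5 in 205 members at 90 min and in 175 at 240 min. AGL86 differed most, by 4.45 log2 units at 90 min and 3.24 at 240 min. AT3G63360, SBTI1.1 and APS4 differed by 3.30, 3.18 and 2.90 at 90 min. The array of line 3-2 at 90 min was the highest of the 6 low arrays for 141 members and the array of line 3-2 at 240 min for 45. Line 3-2 was below line 1-5 in 13 members at 90 min, such as AT3G01570, at 4.23 and 4.03, and AT5G61560, at 5.74 and 5.48. In others the lines were close, as in AT3G12440, at 3.70 and 3.85, and AT3G12470, at 6.63 and 6.71.

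**Figure D5:**
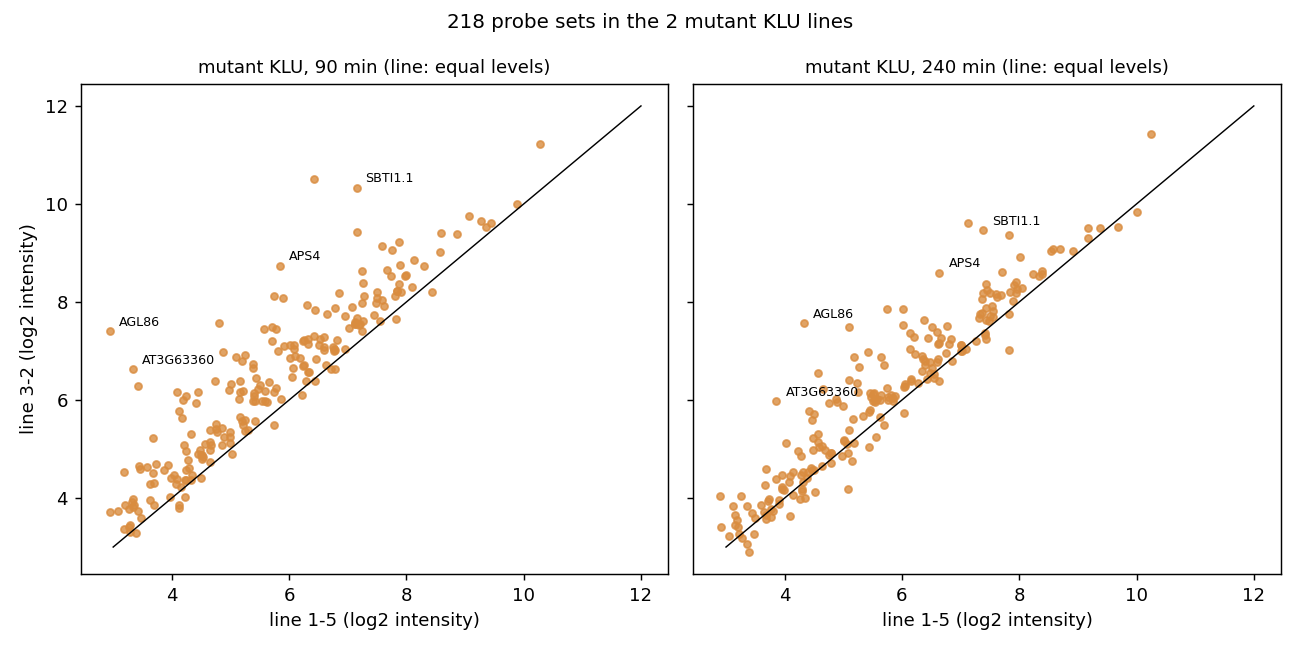
Log2 intensity of the 218 members in mutant line 1-5 (horizontal axis) and mutant line 3-2 (vertical axis) at 90 min (left) and 240 min (right), with a line of equal levels. Most points lie above the line, 205 at 90 min and 175 at 240 min, and AGL86, SBTI1.1, APS4 and AT3G63360 are far above it.

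Genes of the marker lists also differed between the mutant lines, in either direction. The pollen list mean was 4.70 in line 1-5 and 5.09 in line 3-2 at 90 min, and 4.71 and 4.76 at 240 min. STZ, a zinc finger protein of stress responses, read 4.81 and 6.23 in the same order at 90 min and 4.78 and 6.77 at 240 min, and WRKY53 read 4.16 and 5.93, then 4.08 and 6.11. CML38, a calmodulin-like protein, read 4.56 and 3.13, then 3.65 and 3.73. These are the 3 of 18 touch and wound genes measured under their names, and their part in the members' levels was not tested. STZ overlapped between the groups, with 7.07 and 4.03 in wild-type KLU at 90 min. PDC2, a pyruvate decarboxylase of the list for alcohol and low oxygen, read 6.65 and 6.21 without vapour. Its mutant arrays read 7.20 and 8.36, then 8.76 and 8.65, and its induced wild-type arrays lay between 8.77 and 9.37. The other 2 measured genes of that list were lower in line 3-2 at 240 min, AT4G17260 at 8.18 and 7.42 and ACS at 8.61 and 8.17. At 90 min they read 8.61 and 7.90, and 8.42 and 8.59, in the same order. Of the 25 genes measured over all lists, limma called 0 in each of the 5 tests, and 1 to 3 a test had an unadjusted p under 0.05. CYP78A9, the one relative of KLU measured under its name, read 5.78 and 5.70, then 4.98 and 5.20 under induced wild-type KLU, and at most 4.75 elsewhere.

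Between the wild-type lines, which the rule required to be high together after induction, line 3-1 minus line 4-3 had a median over members of 0.01 at 0 min, 0.035 at 90 min and -0.12 at 240 min. Before induction AT1G80130 and APS4 were higher in line 3-1, as given above.

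Members had a chromosomal neighbour that met the gap more often than other measured genes did, though most members had none. The gene order of the RefSeq annotation (assembly TAIR10.1) placed 121 of the 122 named genes. Of 91 members with a measured protein-coding neighbour directly beside them, 21 (23.1%) had a neighbour that also met the gap, compared with 103 of 8735 other measured genes (1.18%). Within 5 genes it was 29 of 120 members (24.2%), compared with 495 of 12049 other genes (4.11%). For genes lower by the same gap it was 0 of 11 beside and 0 of 18 within 5 genes. With so few such genes, these counts cannot tell whether low genes also lie together. The 29 members fall into 14 runs, of which the longest made only of members, with 4, is AT3G12440, AT3G12460, AT3G12470 and AT3G12510. SBTI1.1, AT1G01930 and AT1G01940 form another run.

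Some runs hold genes of the same family, such as the U-box kinases AT5G61550 and AT5G61560, the aspartyl proteases AT5G19100 and AT5G19110 and the TolB-like proteins AT1G21670 and AT1G21680. UGT71C5 lies near UGT71C3 in the same way. Others join genes with no shared family, such as APS4 with AT5G43770, SBTI1.1 with AT1G01930, ATMRK1 with AT3G63270 and AT5G67010 with AT5G67020. AT5G62330 and AT5G62340, and AT4G25770 and AT4G25780, are further pairs, as are AT3G14910 with AT3G14960 and AT3G57220 with AT3G57250. Direct neighbours that did not meet the gap had a median difference of 0.094 log2 units, against -0.002 for the remaining genes. Among them 11 of 103 (10.7%) had no overlap between induced wild-type and the other arrays in the high direction, against 2.44% of the remaining genes. Shared probe signal between copies was not tested. Probe sets with the suffix that marks reading of several transcripts were 4.13% of the members and 4.66% of all.

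Chromosome 2 held 8 of the 121 placed members, 0.428% of its measured genes, and the other chromosomes held between 0.943% and 1.21%.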

How the data were processed

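Labelled RNA was hybridised to 10 Affymetrix arrays, per the labels' protocols. The authors deposited log2 intensities from RMA, per the submitters' processing notes, a method that removes background, puts arrays on a common scale and gives 1 value per probe set. Its version is not given in the sources used here. The values were used as deposited, without further normalization, after 64 control probe sets of 22810 were left out. No label gives a batch or scan date.

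Probe sets were named from GEO's platform annotation, which can be old. It gives 13513 of 22746 probe sets 1 gene and 503 several, and does not list 8730, which are unnamed here. The table of RefSeq genes, assembly TAIR10.1, gave gene order. Sequences of the members were not used here.

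Groups follow the sample titles. The number of arrays limits the precision. Tests used limma 3.58.1 in R 4.3.3, two-sided, with a mean for each of the 5 groups, all 10 arrays in the fit, and Benjamini-Hochberg adjustment over 22746 probe sets, at 0.05. The fit was tested on simulated data. Tables and figures were made with Python 3.11.15, pandas 2.3.3 and matplotlib 3.10.9. The rule, the gene lists and the tests were chosen with earlier results of these data known. Named genes are the first 30 by gap, members next to other members, members past a test, those nearest the edge of the gap and up to 2 further genes of a list with the smallest p. Further members of a family, the function groups and values singled out in the text were chosen after their values were seen. Roles of genes are background.

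The labels name lines that recur at each time, so arrays are paired by line. The line difference correlated between times at 0.633, 0.475 and 0.606 in the wild-type lines and at 0.348 in the mutant lines. Blocked fits took the line as fixed for contrasts inside 1 construct and as random (correlation 0.271) for those across constructs. Other alternatives were other gaps, quantile normalization, median centring, only probe sets over the median level, only the groups compared, robust trended variances and leaving out each array.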

Additional observations from a re-analysis of the deposited data

How the results depend on the processing

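The 218 members became 358 with a gap of 0.25, 85 with a gap of 1 and 138 once probe sets under the median level were dropped, with 222 after quantile normalization and 241 after median centring. Leaving out an array, which can only add members, gave 220 to 270. The count of members called was 0 for wild-type KLU at 240 against 90 min, for mutant KLU at 240 against 90 min and for the difference between them, under every alternative. For mutant KLU at 90 min against uninduced it was 1 with trended, robust variances, 1 when dim probe sets were dropped at the median level, and 0 to 1 on leaving out an array. For mutant KLU at 240 min it was 0 in the compared groups alone and 0 to 1 on leaving out an array. With the line as a block, so that arrays are paired, the counts stayed at 0, 0, 0, 1 and 0, and limma's adjusted p of the probe set called was 0.033 at 240 min. The causes were not tested. With 2 arrays a group, small differences pass no threshold here, and levels near the low end of the scale carry little order.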
